A study of Mus musculus with 47 samples.

Results

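The genes described here are 10 calcium/calmodulin-dependent kinase and calcineurin genes, measured by RNA sequencing in the hippocampus of male C57BL/6J mice. They were taken by name from a count table of 35486 genes, and all 10 were among the 17778 genes with enough reads to be tested. Camk2a, Camk2b, Camk2d and Camk2g encode the subunits of CaM kinase II (CaMKII). Camk4, Camk1d and Camkk2 encode kinases of the CaM kinase cascade, and Ppp3ca, Ppp3cb and Ppp3r1 encode subunits of calcineurin. The mice were young or old and received vehicle (Veh) or mouse platelet factor 4 (PF4), a chemokine that platelets release, by daily intraperitoneal injection. The study asked whether platelet factors modulate cognition. Hippocampal RNA was sequenced as a first step towards finding what PF4 alters in the young and aging brain. The RNA analysis of the paper also used cognitive z-scores of the mice. Young Veh held 13 mice aged 3.75 to 5.26 months and Young PF4 held 12 mice aged 4.08 to 5.03 months. Old Veh held 12 mice aged 17.47 to 19.97 months and Old PF4 held 10 mice aged 17.4 to 20.23 months. No group carried a transgene or mutant allele in the labels, and each of the 47 libraries came from 1 numbered mouse.

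When calcium enters a neuron through NMDA receptors it binds calmodulin, and calcium-loaded calmodulin turns on both kinases and a phosphatase. CaMKII is a large holoenzyme that phosphorylates itself, stays active after calcium has fallen, and anchors to the NMDA receptor at the postsynaptic density, where it is needed for long-term potentiation. CaMKK2 phosphorylates CaMKI and CaMKIV, which act on the cytoskeleton and on transcription through CREB. Calcineurin, which has a catalytic A subunit and a calcium-binding B subunit, responds to lower calcium and takes part in long-term depression. These are activities of proteins, and the values below are amounts of messenger RNA.

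Total counts per library ran from 2242879 to 21112908 (median 10374007), and the 8 libraries of lowest depth were 1 of Young Veh, 2 of Young PF4, 4 of Old Veh and 1 of Old PF4. The labels give Old Veh library numbers 1 to 12 and Old PF4 numbers 13 to 23, while Young Veh (24 to 43) and Young PF4 (28 to 48) are mixed, so effects of age, and of PF4 in old mice, cannot be told apart from library order. Young Veh replicate 4 and Old PF4 replicate 8 had the lowest length index, which is the mean level of genes with long transcripts minus that of genes with short transcripts on the log2 scale (-0.35 and -0.23, against -0.16 to 0.18 in the other 45 libraries). Summed excitatory neuron markers (6 genes, among them Slc17a7 and Prox1) had group medians from 1150 to 1163 CPM, the read count scaled to a common library size, and no marker of any cell type list was at 0 in a group. The 10 choroid plexus markers had a median sum of 1943 CPM in Young Veh (12.0 to 4259) and 2380 CPM in Young PF4 (94.0 to 3448), against 47.1 CPM in Old Veh (15.1 to 4259) and 65.9 CPM in Old PF4 (25.9 to 3280). In bulk tissue, fewer cells of a type and less RNA per cell cannot be told apart.

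The 10 transcripts fell into a high and a low tier when their CPM was divided by the length of the longest annotated transcript. Ppp3r1, the calcineurin B subunit of the brain, had a median over the 47 libraries of 464 CPM per kb. Camk2a, the alpha subunit that makes up most forebrain CaMKII, had 452 CPM per kb, and Ppp3ca, the main catalytic subunit of calcineurin in neurons, had 416 CPM per kb. Camk2b, whose beta subunit binds actin, followed at 293 CPM per kb. Each of these transcripts stood above at least 99.4% of the genes tested on this scale. The 6 others lay between 60.1 CPM per kb (Ppp3cb, the second catalytic subunit) and 19.5 CPM per kb (Camk4, a largely nuclear kinase). Camk2g had 52.3 CPM per kb, Camk1d 29.9 CPM per kb, Camkk2 25.1 CPM per kb and Camk2d 20.2 CPM per kb.

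Neighbours in this order did not all differ beyond the spread of libraries. Ppp3r1 was above Camk2a in 25 of 47 libraries and Camk2d was above Camk4 in 27 of 47, so neither pair has a settled order. Camk2a was above Ppp3ca in 36 libraries, and the other neighbours kept their order in 41 to 47 libraries. With the total length of all annotated exons in place of the longest transcript, the first 4 genes kept their ranks, Camk2g and Camk1d passed Ppp3cb, and Camk2d fell to the last place at 4.97 CPM per kb. Ppp3r1 shares exons with Wdr92 (chr11, GRCm38), which held 103263 reads against 634287 for Ppp3r1 over all libraries, and the libraries carry no strand information, so reads of these genes cannot be fully separated. Camk4 shares exons with 2310026I22Rik, which held 146 reads.

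**Figure D1:**
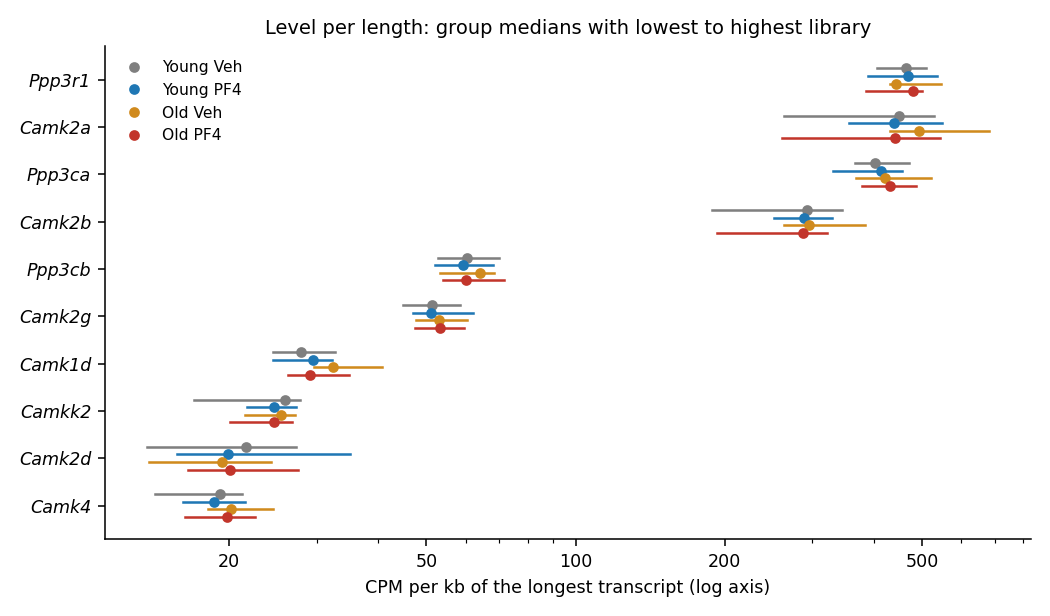
Level of each member as CPM per kb of its longest transcript, on a log axis, with group medians as points and the lowest to highest library as lines. Ppp3r1, Camk2a, Ppp3ca and Camk2b have medians of 293 to 464 CPM per kb over the 47 libraries and the other 6 genes have medians of 60.1 or less.

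Within the CaMKII family, the alpha transcript took 53.9% ± 2.22 (SD, n = 13) of the summed per-length level in Young Veh and the beta transcript took 36.7% ± 1.57. The gamma transcript took 6.65% ± 1.09 and the delta transcript 2.74% ± 0.62 of the same sum. These shares depend on the length used, and with the total length of all exons the Young Veh shares were 63.0% ± 2.11 for alpha, 29.1% ± 1.43 for beta, 6.75% ± 1.14 for gamma and 1.18% ± 0.27 for delta. In Old Veh the alpha share was 57.6% ± 1.56 (SD, n = 12) and the beta share 34.1% ± 0.83, or 66.3% ± 1.42 and 26.7% ± 0.74 with the length of all exons. Among the catalytic calcineurin transcripts, Ppp3ca took 85.3% ± 0.85 (SD, n = 13) in Young Veh and 85.3% ± 1.27 (SD, n = 12) in Old Veh.

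In vehicle-treated mice, 1 of the 10 genes differed with age. Camk1d, which encodes CaMKI delta, rose with age, and the other 9 did not pass the test. Over all genes, 2.77% were called at an adjusted p below 0.05 and 2.16% were called higher in Old Veh, and the count of 1 among 10 stands against that background. The median log2 fold change of the 10 genes was 0.04, beside -0.01 for all genes tested, and 8 of 10 were above 0, beside 45.3% of all genes.

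Camk1d had a lowest, median and highest CPM of 170, 194 and 227 in Young Veh. It had 206, 225 and 283 CPM in Old Veh. All 12 Old Veh libraries were above the Young Veh median and 5 were above the highest Young Veh library, although the ranges overlapped between 206 and 227 CPM. The log2 fold change was 0.21 (SE 0.046, 95% interval 0.12 to 0.30), a 15.8% higher level (edgeR adjusted p = 0.00445). These values rest on 411 to 4036 reads per library in these 2 groups. Camk1d lies at chr2:5293457-5714515 on the minus strand of GRCm38, and the 1 annotated gene that overlaps it held 0 reads.

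The Camk1d difference with age was called in each of the 25 fits that left out 1 library, with log2 fold changes from 0.18 to 0.23 and edgeR adjusted p from 0.00171 to 0.0152. With the choroid plexus score of each library as a covariate it was 0.16 (edgeR adjusted p = 0.0417), and Camk1d correlated at r = -0.41 with summed choroid plexus markers within groups (n = 47). With the library number as a covariate the log2 fold change was 0.19 (SE 0.099, edgeR adjusted p = 0.781), which is no longer a call. The SE without this covariate was 0.046. The fit with the library number called 0 of all genes in this comparison. Library numbers do not overlap between young and old mice, so this fit cannot separate age from library order.

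Camk2a had the largest fold change of the 10 in the same comparison, without passing the test. Its lowest, median and highest CPM were 1307, 2233 and 2630 in Young Veh and 2141, 2453 and 3391 in Old Veh. Of the Old Veh libraries, 11 of 12 were above the Young Veh median and 3 were above every Young Veh library. The log2 fold change was 0.24 (SE 0.089, 95% interval 0.07 to 0.41, edgeR adjusted p = 0.148). The lowest Young Veh value is that of replicate 4, and without that library the log2 fold change was 0.19.

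Camk4 ran from 38.5 through a median of 52.2 to 57.7 CPM in Young Veh and from 49.3 through 54.9 to 66.7 CPM in Old Veh. Its log2 fold change was 0.16 (SE 0.055, edgeR adjusted p = 0.103), with 11 of 12 Old Veh libraries above the Young Veh median. With the length index as a covariate the Camk4 value was 0.11 (edgeR adjusted p = 0.150), and Camk4 had the highest correlation with that index among the 10 genes (r = 0.59 within groups, n = 47, and 0.42 without the 2 libraries of lowest index). Camk2d, the CaMKII subunit best known from heart, ran from 75.4 through 120 to 151 CPM in Young Veh and from 76.1 through 107 to 134 CPM in Old Veh. Its log2 fold change was -0.17 (SE 0.11, edgeR adjusted p = 0.474), and the groups overlapped over most of their ranges.

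The remaining members differed little between these groups. Camk2b had a log2 fold change of 0.04 (95% interval -0.09 to 0.18) and Camk2g one of 0.04 (95% interval -0.04 to 0.12). Camkk2, the kinase upstream of CaMKI and CaMKIV, had a log2 fold change of -0.01 (95% interval -0.12 to 0.09). The 3 calcineurin genes had log2 fold changes of 0.04 for Ppp3ca, 0.05 for Ppp3cb and 0.01 for Ppp3r1, with intervals that together ran from -0.09 to 0.15. A change with age of 0.2 or more on the log2 scale lies outside the interval of each of these 6 genes.

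**Figure D2:**
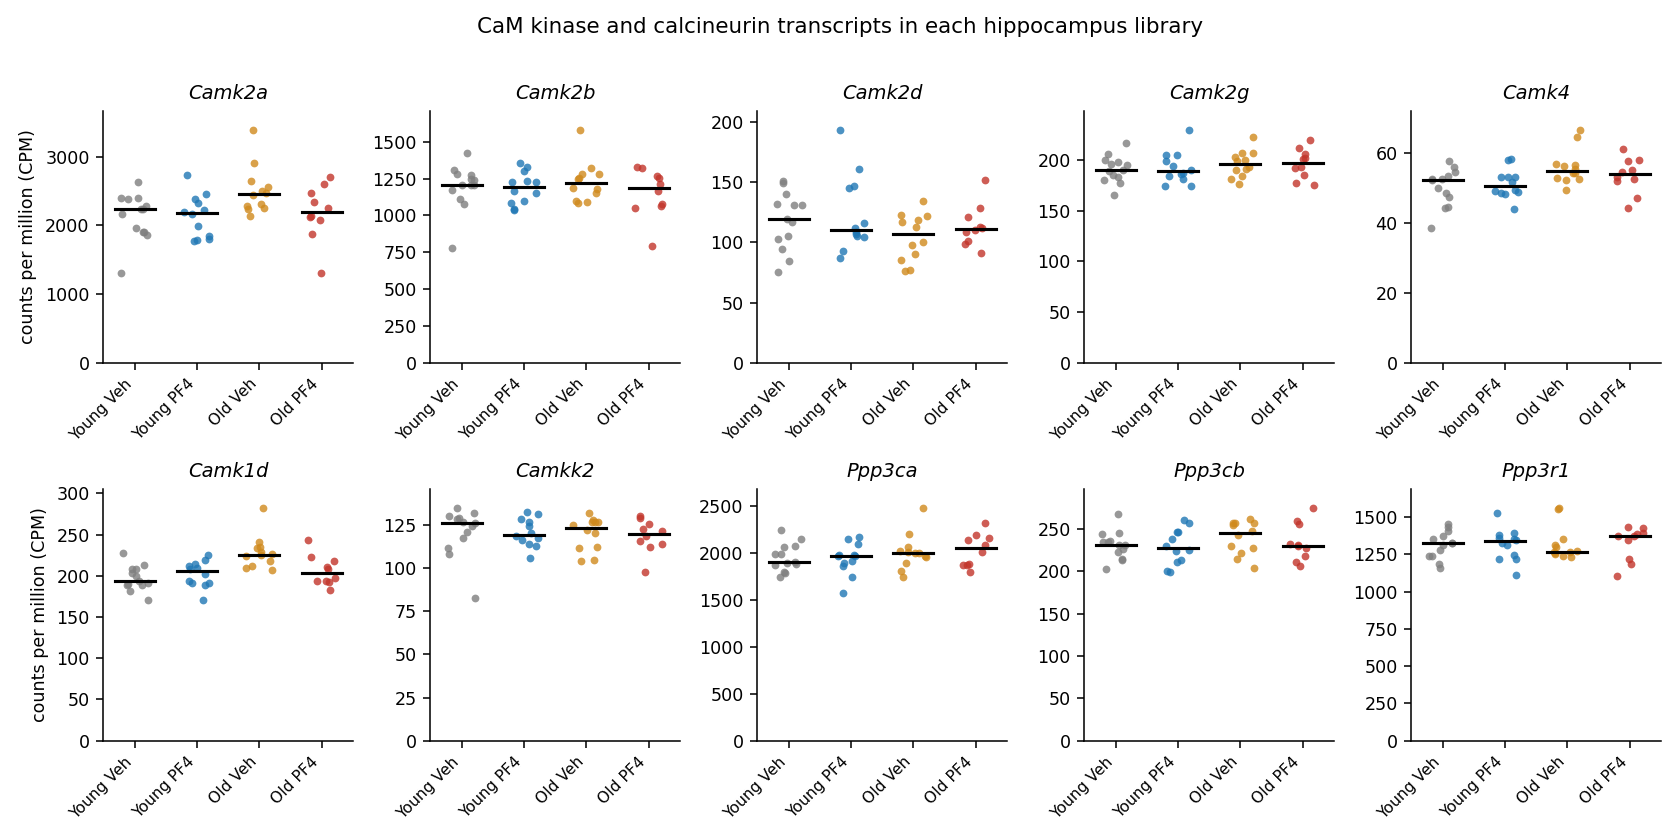
CPM of each member in each library, with 1 point per mouse, black bars at group medians and a separate axis from 0 for each gene. Camk1d runs from 206 to 283 CPM in Old Veh and from 170 to 227 CPM in Young Veh, and Young Veh replicate 4 (1307 CPM) and Old PF4 replicate 8 (1299 CPM) are the lowest points of Camk2a.

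The same age step was measured in PF4-treated mice, which are other animals than the vehicle-treated ones. Between Old PF4 and Young PF4 the edgeR test called 0 of the 10 genes, beside 0.332% of all genes, with 0 of 10 and 1471 of all genes at an unadjusted p below 0.05, and DESeq2 called 0 of the 10. Camk1d had 171, 205 and 225 CPM (lowest, median and highest) in Young PF4 and 183, 203 and 243 CPM in Old PF4. Its log2 fold change was 0.03 (SE 0.049, edgeR adjusted p = 0.948), and 5 of 10 Old PF4 libraries were above the Young PF4 median. Camk2a had a log2 fold change of 0.03 (SE 0.095) and Camk4 one of 0.07 (SE 0.059). The values of the 10 genes ran from -0.11 (Camk2d) to 0.07 (Camk4).

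Between Old PF4 and Old Veh, which shares its Old Veh mice with the vehicle comparison of ages, the edgeR test called 0 of the 10 genes, beside 0.0337% of all genes. At an unadjusted p below 0.05 there were 2 of 10, Camk1d and Camk2a, beside 1102 of the 17778 genes tested, and DESeq2 called 0 of the 10. The log2 fold change of Camk1d was -0.15 (SE 0.049, 95% interval -0.25 to -0.05, unadjusted p = 0.00376, edgeR adjusted p = 0.472). Of the Old PF4 libraries, 9 of 10 were below the Old Veh median of Camk1d and 5 were below the lowest Old Veh library. The value without 1 library ran from -0.18 to -0.12, with edgeR adjusted p from 0.214 to 0.680.

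Camk2a had 1299, 2195 and 2703 CPM (lowest, median and highest) in Old PF4, against 2141 to 3391 CPM in Old Veh. Its log2 fold change was -0.20 (SE 0.095, unadjusted p = 0.0412, edgeR adjusted p = 0.792), and 5 of 10 Old PF4 libraries were below every Old Veh library. The lowest of them was replicate 8, and without it the log2 fold change was -0.13. Camk4 had a log2 fold change of -0.07 (SE 0.059) and Camk2d one of 0.13 (SE 0.12). The 3 calcineurin genes lay between -0.03 and 0.01, with intervals that together ran from -0.13 to 0.12.

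In young mice, PF4 against vehicle gave 0 calls among the 10 genes and 0.0% of all genes in edgeR. There were 0 of 10 genes and 213 of all genes at an unadjusted p below 0.05, and DESeq2 called 0 of either. Camk1d had a log2 fold change of 0.03 (SE 0.046), Camk2a one of 0.01 (SE 0.089) and Camk2d one of 0.07 (SE 0.11). The 10 values ran from -0.01 to 0.07.

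An interaction term gave the difference between the PF4 effects at the 2 ages, which is also the difference between the age steps with and without PF4. It called 0 of the 10 genes and 0.0% of all genes in edgeR, with 1 of 10 and 707 of all genes at an unadjusted p below 0.05, and DESeq2 called 0 of either. Camk1d was the 1 gene, with a difference of -0.19 on the log2 scale (SE 0.068, 95% interval -0.32 to -0.05, unadjusted p = 0.00848, edgeR adjusted p = 1.00). Camk2a had a difference of -0.21 (SE 0.13), which was -0.15 without Old PF4 replicate 8, and Camk4 one of -0.09 (SE 0.081), both without a call. The call for Camk1d in vehicle-treated mice and its absence in PF4-treated mice is therefore not shown to be a difference between them.

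**Figure D3:**
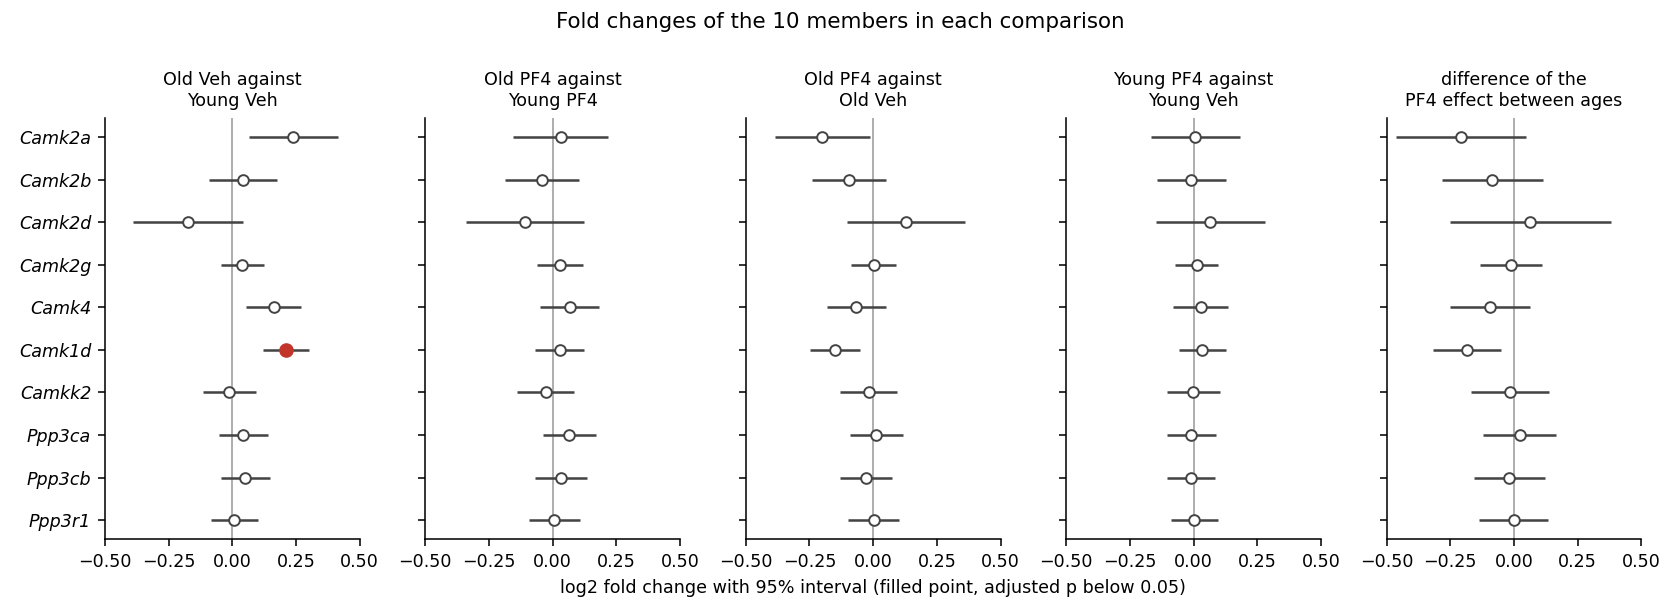
Log2 fold change of the 10 members in each comparison, with lines for the 95% interval and a filled point where the adjusted p over all genes is below 0.05. Camk1d in Old Veh against Young Veh (0.21) is the only filled point, and the intervals of Ppp3ca, Ppp3cb and Ppp3r1 include 0 in each panel.

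Ratios between subunits do not depend on how a library is scaled, and 3 of them were compared in 4 pairs of groups by two-sided permutation tests with 100000 resamples, with p adjusted over the 12 tests. The ratio of alpha to beta CaMKII transcripts was higher in Old Veh than in Young Veh. The log2 ratio of Camk2a to Camk2b reads was 0.82 ± 0.11 (SD, n = 13) in Young Veh, with a lowest, median and highest value of 0.58, 0.84 and 0.99. It was 1.02 ± 0.067 (SD, n = 12) in Old Veh, with values of 0.96, 1.02 and 1.18. All 12 Old Veh libraries were above the Young Veh median and 7 were above the highest Young Veh library. The difference was 0.20 (SE 0.037, permutation p = 4e-05, adjusted p = 0.00048). It was called in each test that left out 1 library and in 6 of 7 other settings, with differences from 0.17 to 0.21. The exception was the library number as a covariate, with which the difference was 0.11 (permutation of residuals, adjusted p = 0.827).

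In Young PF4 the log2 ratio of Camk2a to Camk2b was 0.84 ± 0.11 (SD, n = 12), running from 0.71 to 1.04, and in Old PF4 it was 0.91 ± 0.12 (SD, n = 10), running from 0.71 to 1.09. The age step with PF4 was 0.07 (SE 0.049, permutation test, adjusted p = 0.383). Old PF4 was lower than Old Veh by a difference of -0.11 (SE 0.042, permutation p = 0.0107, adjusted p = 0.043), with 9 of 10 Old PF4 libraries below the Old Veh median. That call was lost in 13 of the 22 tests that left out 1 library, with differences from -0.13 to -0.09, and without the 8 libraries of lowest depth the difference was -0.069 (adjusted p = 0.349). With the choroid plexus score as a covariate it was -0.11 (permutation of residuals, adjusted p = 0.0838). With the replicate number as a block it was -0.12 (permutation of residuals, adjusted p = 0.0576). With the length index regressed out it was -0.096 (permutation test, adjusted p = 0.124). Young PF4 differed from Young Veh by 0.02 (permutation test, adjusted p = 0.881). The difference of the PF4 effect between ages was -0.13 (permutation of residuals, p = 0.034, adjusted p = 0.0772 over 3 ratios). Within groups this ratio correlated at r = 0.24 with the length index, at 0.04 with the log2 total count and at 0.01 with the choroid plexus score (n = 47).

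**Figure D4:**
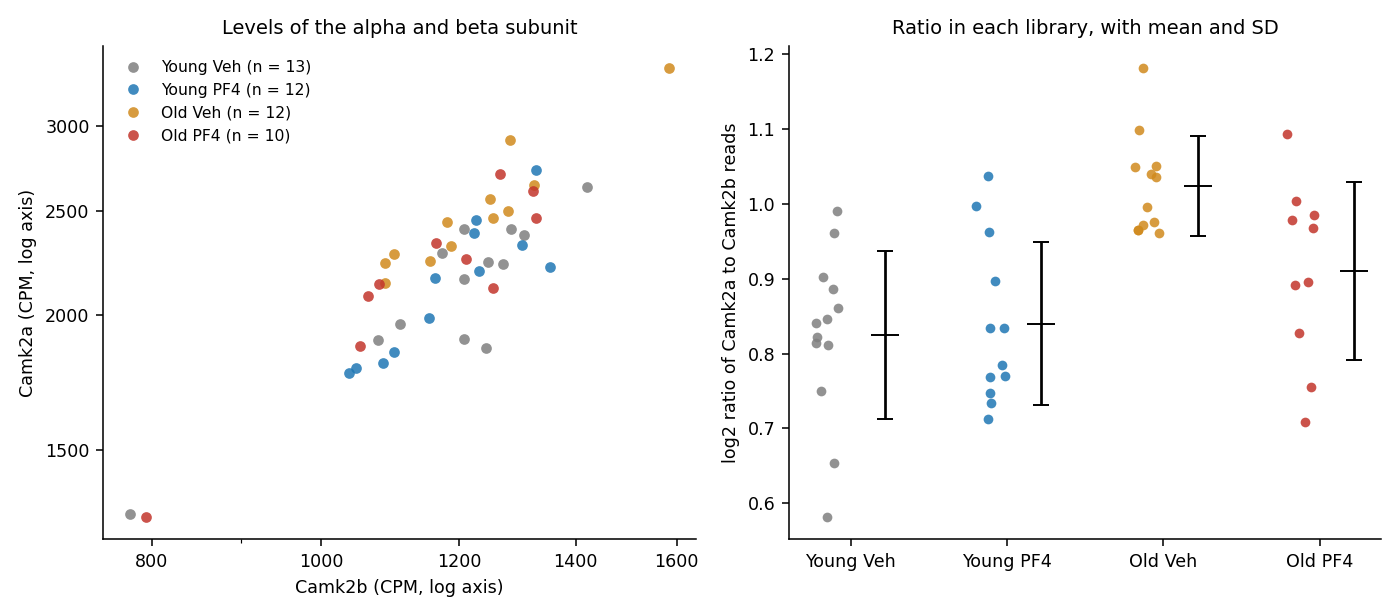
Left, CPM of Camk2a against Camk2b in each of the 47 libraries on log axes; right, log2 ratio of their reads in each library, with group mean and SD as bars beside the points. Old Veh ratios run from 0.96 to 1.18 and Young Veh ratios from 0.58 to 0.99, while the 2 libraries at the lower left are Young Veh replicate 4 and Old PF4 replicate 8.

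Camk2n1 encodes an inhibitor protein that binds active CaMKII. The log2 ratio of Camk2a to Camk2n1 was 2.80 ± 0.30 (SD, n = 13) in Young Veh and 3.05 ± 0.16 (SD, n = 12) in Old Veh. The difference was 0.24 (SE 0.093, permutation p = 0.00914, adjusted p = 0.043), with 10 of 12 Old Veh libraries above the Young Veh median. It was lost in 15 of the 25 tests that left out 1 library, and without Young Veh replicate 4 alone it was 0.18. Within groups this ratio correlated at r = 0.47 with the length index. With that index regressed out, the difference with age was 0.17 (permutation test, adjusted p = 0.246). The age step with PF4 was -0.045 (SE 0.12, permutation test, adjusted p = 0.881). Old PF4 against Old Veh gave -0.25 (SE 0.12, permutation test, adjusted p = 0.0913), and without Old PF4 replicate 8, the lowest library of this ratio, it gave -0.15. The difference of the PF4 effect between ages was -0.29 (permutation of residuals, p = 0.0515, adjusted p = 0.0772 over 3 ratios). The log2 ratio of the catalytic calcineurin transcripts Ppp3ca and Ppp3cb was 3.08 ± 0.10 (SD, n = 13) in Young Veh and 3.07 ± 0.16 (SD, n = 12) in Old Veh. No pair of groups differed in this ratio by more than 0.05, with adjusted p of 0.730 or more in the permutation tests.

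Within groups, the members did not vary together as 1 block. After each group was centred on its mean, the log2 CPM of Camk2a and Camk2b correlated at r = 0.91 over the 47 libraries. Camk1d had r = 0.60 with Camk2a and 0.72 with Camk2b, and Camkk2 had r = 0.62 and 0.66. Camk2d varied against Ppp3ca (r = -0.75), against Camk1d (r = -0.51) and against Ppp3cb (r = -0.51). Ppp3ca and Ppp3cb correlated at 0.55 with each other and at 0.17 and 0.11 with Camk2a. Some of these values rest on the 2 libraries of lowest length index, Young Veh replicate 4 and Old PF4 replicate 8. Over the other 45 libraries, Camk2a had r = 0.85 with Camk2b, 0.51 with Camk1d and 0.33 with Camkk2, and its r was 0.53 with Ppp3ca and 0.59 with Ppp3cb. Camk2d still had r = -0.74 with Ppp3ca and -0.67 with Camk1d. These correlations are descriptions and carry no test, and genes of the same library share its depth and composition.

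The same centred values were set against the other measures of each library. Summed excitatory neuron markers correlated at r = 0.86 with Camk2a, 0.85 with Camk2b and 0.65 with Camk1d, and at -0.41 with Camk2d. Summed inhibitory neuron markers correlated at 0.45 with Camk2d, the highest value of any member. Astrocyte markers ran against Camk2a and Camk2b (r = -0.62 for each). The length index correlated at 0.46 with Camk2a, 0.47 with Camk2b and -0.42 with Ppp3ca. Over the 45 libraries without the 2 of lowest length index, the excitatory neuron values were 0.90 for Camk2a, 0.92 for Camk2b and 0.60 for Camk1d, while those of the length index were 0.04, -0.01 and -0.32 for Camk2a, Camk2b and Ppp3ca. The astrocyte values were then -0.35 for Camk2a and -0.33 for Camk2b. The part of these measures in the differences between groups was not tested beyond the covariate fits.

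**Figure D5:**
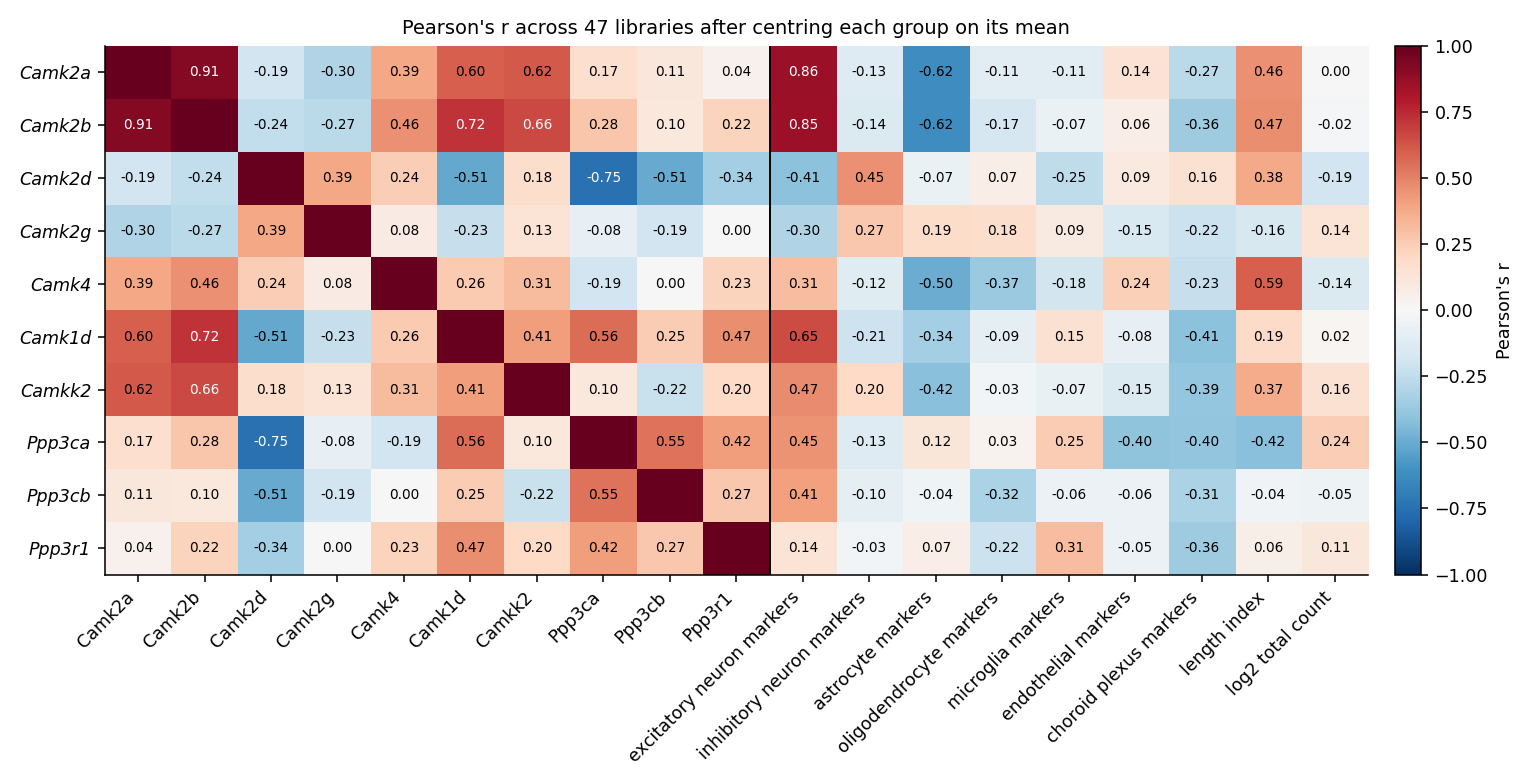
Pearson's r of log2 CPM over 47 libraries, each group centred on its mean, between members (left of the line) and with summed cell type markers, length index and log2 total count (right of the line). Camk2a and Camk2b form the highest pair (0.91) and Camk2d with Ppp3ca the lowest (-0.75).

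A few libraries held many of the extreme values. Young Veh replicate 4 held 1307 CPM of Camk2a, 777 of Camk2b and 82.6 of Camkk2, which are the lowest Young Veh values. This library was also the lowest of Young Veh for Camk1d (170 CPM), Camk4 (38.5 CPM) and Ppp3r1 (1160 CPM). It also held the highest Young Veh value of Ppp3cb, at 268 CPM. Old PF4 replicate 8 likewise held the lowest Old PF4 values of Camk2a (1299 CPM), Camk2b (794 CPM) and Camkk2 (97.5 CPM) with the highest of Ppp3ca (2317 CPM) and Ppp3cb (275 CPM). Its Camk1d value (183 CPM) was also the lowest of Old PF4, and its Camk2g value (220 CPM) was the highest. Old Veh replicate 1 held the highest value of any library for Camk2a (3391 CPM), Camk2b (1583 CPM), Camk1d (283 CPM) and Ppp3ca (2483 CPM).

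The 3 genes most like Camk1d over the 47 centred libraries were Erc2 (r = 0.83), which encodes a protein of the presynaptic active zone, Orai2 (r = 0.78), a calcium channel subunit, and Epha6 (r = 0.77), an ephrin receptor. Ppp3r1 was most like its overlapping gene Wdr92 (r = 0.92).

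Among the partners and targets of these enzymes, calls were few. Of 9 CaMKII partners of the postsynaptic density, 1 was called higher in Old Veh than Young Veh and 0 lower, beside 2.77% of all genes called and 2.16% called higher. This was Grin2b, the NMDA receptor subunit to which CaMKII anchors, with 257, 355 and 402 CPM (lowest, median and highest) in Young Veh and 350, 422 and 502 CPM in Old Veh. Its log2 fold change was 0.26 (SE 0.062, edgeR adjusted p = 0.0120), and 9 of 12 Old Veh libraries were above every Young Veh library. In Old PF4 against Young PF4 it had a log2 fold change of 0.04 (SE 0.067, edgeR adjusted p = 0.949), and in Old PF4 against Old Veh one of -0.17 (SE 0.067, edgeR adjusted p = 0.626). The interaction term of Grin2b was -0.22 (SE 0.092, edgeR adjusted p = 1.00). With the library number as a covariate, 0 of all genes were called with age in vehicle-treated mice, so the Grin2b call was lost. At an unadjusted p below 0.05 there were 4 of 9 partners with age in vehicle-treated mice, beside 15.2% of all genes, and 3 of 9 in Old PF4 against Old Veh, beside 6.2% of all genes. Over the 5 comparisons there were 8 in all, and 6.97% of all gene values passed the same limit. In Old PF4 against Old Veh 9 of 9 had a fold change below 0, without a call, beside 8182 of the 17778 genes tested. The median of the 9 partners was 0.07 with age in vehicle-treated mice, beside -0.01 for all genes, and -0.06 with PF4 in old mice, beside 0.01 for all genes.

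In the other lists edgeR called 0 genes over the 5 comparisons, and the gene with the smallest p is given for each. Unadjusted p below 0.05 occurred 2 to 4 times per list over these comparisons, beside 6.97% of all gene values, and DESeq2 called 1 gene, Pcp4. Of 7 other CaM kinases and CaMKII inhibitors, this was Camk2n2, an inhibitor of CaMKII, at -0.23 with age in vehicle-treated mice (SE 0.089, edgeR adjusted p = 0.163). Of the 7 tested of 9 other calcineurin subunits and regulators, it was Rcan1, which binds and restrains calcineurin, at -0.12 in the same comparison (SE 0.041, edgeR adjusted p = 0.10). Of 6 calmodulin genes and calmodulin-binding buffers, it was Pcp4, a small calmodulin-binding protein, at -0.37 (SE 0.11, edgeR adjusted p = 0.0606), which DESeq2 called. Pcp4 had a median of 75.6 CPM in Young Veh and 57.1 CPM in Old Veh, and 8 of 12 Old Veh libraries were below every Young Veh library.

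Of the 9 tested of 10 calcineurin targets and phosphatase 1 genes, the smallest p was that of Ppp1cc, a catalytic subunit of protein phosphatase 1, at -0.27 in Old PF4 against Old Veh (SE 0.074, edgeR adjusted p = 0.275). For Ppp1cc, 9 of 10 Old PF4 libraries were below the lowest Old Veh library. Of 7 targets of the CaM kinase cascade, it was Creb1, a transcription factor that CaMKIV phosphorylates, at -0.14 in the same comparison (SE 0.057, edgeR adjusted p = 0.694). Ppp3r2, the testis form of the calcineurin B subunit, Chp2 and Nfatc4 had too few reads to be tested, with medians of at most 0.58 CPM in any group.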

How the data were processed

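The deposited values are whole-number counts per gene, which the authors had not normalized. Per the submitters' processing notes, reads were trimmed with Trim Galore 0.3.7, aligned to GRCm38 with STAR 2.5.3a and analysed with DESeq2. The counting program and annotation release are not given in the sources used here. Libraries were made by Smart-Seq2, which does not mark strand, and the authors left out libraries of low coverage. Groups came from the sample titles.

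Counts of all 47 libraries were fitted together with the quasi-likelihood test of edgeR 4.0.16 (R 4.3.3), with TMM scaling and filterByExpr, and Benjamini-Hochberg adjustment ran over 17778 genes, at a threshold of 0.05. The standard error is the fold change over the root of F, and the 95% interval is 1.96 standard errors. CPM uses TMM-scaled totals, log2 CPM a prior count of 2 and ratios a pseudocount of 0.5. Transcript lengths came from a GRCm38 annotation. The length index used quartiles of length for 99.3% of genes. DESeq2 1.42.0 was an alternative. The fit was tested on simulated counts. No pair of libraries within a group was a duplicate. Titles number the mice, and the tests set differences between groups against the spread between libraries of different mice.

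Members, gene lists and tests were chosen with earlier results of these data known. The text names all members, called genes of each pathway list or else the gene with the smallest p, and the 3 genes most like a called member. Wdr92 and the genes with too few reads were named after their values were seen. Settings tried were DESeq2's test and size factors, a minimum of 10 reads, each pair of groups fitted alone, ratios without a pseudocount, the replicate number as a block, the length index, choroid plexus score or library number as a covariate, and leaving out single libraries or the 8 of lowest depth. The DESeq2, read minimum and groups-alone settings do not apply to the ratios. Leaving out the 2 libraries of lowest length index, also from the correlations, regressing that index out of the ratios, the interaction test of the ratios, and a linear model of the ratios with the library number, choroid plexus score or replicate block (permutation of residuals) were added after the data had been seen.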

Additional observations from a re-analysis of the deposited data

Results flagged for a closer look

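Dixon's test of a lone extreme value was applied to groups of at most 10 mice, which left Old PF4 alone. There, 3 of the 10 genes had 1 library apart from the other 9. All 3 were in replicate 8. Camk2a had 10.34 log2 CPM there, against 10.87 to 11.4 in the others, a gap of 0.498 of the whole range. Camk2b had 9.63 log2 CPM, against 10.04 to 10.38, a gap of 0.55 of the range. Camkk2 had 6.61 log2 CPM, against 6.81 to 7.03, a gap of 0.481 of the range. In Young Veh, to which the test was not applied, replicate 4 was as far from the others in the same genes, with gaps of 0.506 of the range for Camk2a, 0.542 for Camk2b and 0.551 for Camkk2. Chance alone would put about 1 in 20 groups past this limit. The library had 12380047 reads, and its length index was the second lowest of the 47 libraries (-0.23). Its part in these values was not tested. Without it, the log2 fold change of Camk2a in Old PF4 against Old Veh was -0.13, in place of -0.20, and the difference in the log2 ratio of Camk2a to Camk2n1 was -0.15, in place of -0.25.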

How the results depend on the processing

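Of 490 fold changes of the 10 genes recomputed under other settings, 62 changed sign, and of 1410 with 1 library left out, 140 did, each at 0.08 or less and within its standard error. Members called differed in 1 setting. With the library number as a covariate 0 were called with age in vehicle-treated mice (Camk1d 0.19, adjusted p = 0.781), and the genes called in all fell to 0 in the 3 comparisons that had any. Genes called with age in vehicle-treated mice were 901 with the length index as covariate (539 higher and 362 lower), 807 without the 2 libraries of lowest length index (572 higher and 235 lower) and 176 without the 8 of lowest depth (156 higher and 20 lower).

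For Old PF4 against Young PF4 (59 called) the count was 90 with DESeq2, 98 with the length index, 89 without the 2 libraries, 21 with the groups alone and 36 to 91 with 1 library left out (39 without Old PF4 replicate 2, 36 without Young PF4 replicate 11 or 5, 91 without Young PF4 replicate 1). For Old PF4 against Old Veh (6 called) it was 24 with DESeq2, 10 with the choroid plexus score, 0 with the length index, with the groups alone or without the 8 libraries, and 0 to 20 with 1 library left out. The interaction called 1 gene with a minimum of 10 reads.

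Replicate numbers recur in each group, and the labels do not say that a number marks a shared litter or day. Same-numbered Old Veh and Old PF4 mice had the same age in 4 of 10 pairs and differed by at most 0.66 months in the others. Deviations of same-numbered mice correlated at r over 0.1 in 5 of 10 pairs of Old PF4 with Old Veh, 3 of 10 of Old PF4 with Young PF4, 3 of 12 of Old Veh with Young Veh and 4 of 12 of Young PF4 with Young Veh, so the numbers were not taken as pairs. With the replicate block, 90 genes were called for Old PF4 against Young PF4 and 10 for Old PF4 against Old Veh, and 1 member, Camk1d, with age (0.20, adjusted p = 0.00955).

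The difference in the log2 ratio of Camk2a to Camk2b between Old PF4 and Old Veh was -0.069 without the 8 libraries (adjusted p = 0.349), -0.096 with the length index regressed out (0.124) and -0.091 without the 2 libraries (0.0906). With 1 library left out it ran from -0.134 to -0.091, and the call was lost without Old PF4 replicate 1, 6, 8, 9 or 10 or Old Veh replicate 1, 2, 3, 4, 5, 9, 10 or 11. For Camk2a to Camk2n1 with age, the values were 0.25 (adjusted p = 0.0931), 0.17 (0.246) and 0.18 (0.0906), and 0.18 to 0.28 with 1 library left out. That call was lost without Old Veh replicate 1, 2, 3, 4, 5, 9, 10 or 11 or Young Veh replicate 1, 4, 6, 8, 9, 10 or 13. For Old PF4 against Old Veh the same ratio ran from -0.30 to -0.15, and passed the threshold without Old PF4 replicate 3 or Old Veh replicate 8. With the library number in the ratio model, Camk2a to Camk2b differed by 0.1117 with age in vehicle-treated mice (adjusted p = 0.827), by -0.0013 for Old PF4 against Young PF4 (the opposite sign) and by -0.0741 for Old PF4 against Old Veh, and Camk2a to Camk2n1 by 0.208 with age (adjusted p = 0.934). With the choroid plexus score the Old PF4 against Old Veh value of Camk2a to Camk2b was -0.114 (0.0838) and the age value of Camk2a to Camk2n1 was 0.228 (0.127). With the replicate block they were -0.118 (0.0576) and 0.232 (0.077), so both calls were lost, while Camk2a to Camk2b with age was 0.20 under either. The causes were not tested. Depth limits Camk4 most, with 110 reads in its shallowest library.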

Other observations

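The relatives of these enzymes among other calcium-dependent kinases also held no call by edgeR or DESeq2, with 4 unadjusted p below 0.05 over the 5 comparisons, where 6.97% of all gene values passed that limit. Of 8 genes for protein kinase C, death-associated protein kinases, doublecortin-like kinases and myosin light chain kinase, the smallest p was that of Mylk, which phosphorylates myosin light chain in smooth muscle, at -0.38 on the log2 scale in Old PF4 against Young PF4 (SE 0.11, edgeR adjusted p = 0.159). It was 0.02 with age in vehicle-treated mice (SE 0.10).

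Some glial markers differed with age beside the neuronal genes above. C1qa, a complement gene of microglia, was called higher in Old Veh than Young Veh (log2 fold change 0.28, edgeR adjusted p = 0.0262) and in Old PF4 than Young PF4 (0.42, edgeR adjusted p = 0.00255). Gfap, an astrocyte filament gene, was called higher in Old PF4 than Young PF4 (0.49, edgeR adjusted p = 0.00179), with 0.27 in Old Veh against Young Veh (edgeR adjusted p = 0.0568). Aldh1l1, an astrocyte enzyme, was called lower in Old Veh than Young Veh (-0.19, edgeR adjusted p = 0.0465), with -0.03 in Old PF4 against Young PF4 (edgeR adjusted p = 0.957) and 0.19 in Old PF4 against Old Veh (edgeR adjusted p = 0.391). DESeq2 also called Gfap and Cx3cr1, a microglial receptor gene, in Old Veh against Young Veh. Of the markers of excitatory neurons, inhibitory neurons, oligodendrocytes, endothelial cells and choroid plexus, edgeR and DESeq2 each called 0 in any comparison. An unadjusted p below 0.05 in edgeR occurred 1, 4, 6, 0 and 1 times in these lists over the 5 comparisons, beside 6.97% of all gene values. Of the 6 for oligodendrocyte markers, 5 were in Old PF4 against Young PF4, where 8.27% of all genes passed that limit and 6 of 6 of these markers had fold changes above 0.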
